A study of Arabidopsis thaliana with 6 samples.

Results

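The LHCB4 genes of Arabidopsis encode CP29, a chlorophyll-binding antenna protein of photosystem II, and 3 isoforms were followed here: LHCB4.1 (AT5G01530, chromosome 5), LHCB4.2 (AT3G08940, chromosome 3) and LHCB4.3 (AT2G40100, chromosome 2). Each was read from its probe set with 1 listed gene, 251082_at, 258993_at and 265722_at in that order, so the 3 members stand among 13286 genes with such a probe set and 22746 probe sets tested. The rule that chose them used gene names and no measured value, but earlier results of these data were known when it was set. RNA came from leaves of equal age of wild-type Col-0 and of pam48, a Col-0 mutant also named mterf6-1, with 3 biological replicates and 3 Affymetrix arrays per genotype. Plants of both genotypes stood on soil in a greenhouse in days of 16 h light and 8 h dark, with light of about 120 µmol photons m-2 s-1, and were taken at 8 rosette leaves. The mutant is 1 allele by name, and how many plants went into a sample is not given in the sources used here.

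CP29 is a monomeric antenna protein that sits between the photosystem II core and the trimers of the major light-harvesting complex, and passes excitation energy inward. It binds chlorophyll a, chlorophyll b and xanthophylls, and it is also known as a site of phosphorylation and of photoprotective energy dissipation. All LHCB4 genes lie in the nucleus, and their products are imported into the plastid. LHCB4.1 and LHCB4.2 encode very similar proteins that make up the bulk of CP29 in Arabidopsis, while LHCB4.3, also called LHCB8, encodes a form with a shortened C-terminal region whose transcript is known to rise in strong light. MTERF6, to which the allele name mterf6-1 refers, encodes a protein of the mTERF family, whose members act on nucleic acids in plastids and mitochondria.

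None of the isoforms passed the test between the genotypes. The mean of LHCB4.3 was 1.81-fold lower in pam48, LHCB4.2 was 1.49-fold lower, and LHCB4.1 was 1.07-fold lower with overlapping genotypes. All 3 means were lower in pam48, as were 55.3% of all probe sets. In the fit across all probe sets (limma, adjusted p under 0.05) 0 of 3 members were called, against 0.778% of all probe sets (177 of 22746). At an unadjusted p under 0.05, LHCB4.2 and LHCB4.3 were lower, against 6.67% of all probe sets that were lower by that rule. The median difference of the members was −0.58 on the log2 scale, beside −0.03 over all probe sets. Values are log2 summaries of a probe set, differences are pam48 minus wild type, and levels of different probe sets are not compared, since probes bind with different strength. In whole leaves, fewer cells with a transcript and less of it per cell cannot be told apart.

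LHCB4.1 gave nearly the same value on every array. In wild type it stood at 14.10, 14.08 and 13.97 on replicates 1, 2 and 3, with a mean of 14.05 ± 0.07 (SD, n = 3). In pam48 it stood at 13.89, 13.93 and 14.03, with a mean of 13.95 ± 0.08 (SD, n = 3). The genotypes overlapped, as pam48 replicate 3 lay above wild type replicate 3. The difference was −0.10 ± 0.10 (SE, limma adjusted p = 0.711), with a 95% interval from −0.34 to 0.14, which spans from 1.27-fold lower to 1.1-fold higher in the mutant. The highest value of any probe set was 14.69 to 14.76 on the 6 arrays, so LHCB4.1 and LHCB4.2 were read near the top of the scale, and whether changes are compressed there was not tested. The difference was −0.16 after median centring and −0.06 after quantile normalization.

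LHCB4.2 was tight in wild type and spread out in pam48. The wild-type values were 13.90, 13.98 and 14.03, with a mean of 13.97 ± 0.06 (SD, n = 3). The pam48 values were 12.97, 13.40 and 13.80, with a mean of 13.39 ± 0.42 (SD, n = 3). All 3 pam48 arrays lay below all 3 wild-type arrays, but the nearest arrays of the genotypes were only 0.10 apart, and pam48 replicate 1 was the lowest. Relative to the wild-type mean, the mutant arrays stood at 50.0%, 67.4% and 89.0% on replicates 1, 2 and 3. The difference was −0.58 ± 0.21 (SE, limma adjusted p = 0.302), with a 95% interval from −1.08 to −0.08. Without pam48 replicate 1 the difference was −0.37 (limma adjusted p = 0.309). A larger SD in pam48 than in wild type was found in 66.5% of all probe sets.

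LHCB4.3 was lower on every pam48 array than on any wild-type array, and it varied most in wild type of the 3 isoforms. Its wild-type values were 8.70, 8.38 and 7.68, with a mean of 8.25 ± 0.52 (SD, n = 3). Its pam48 values were 7.57, 7.07 and 7.56, with a mean of 7.40 ± 0.29 (SD, n = 3). Wild type replicate 3 lay only 0.11 above the highest mutant array. The wild-type arrays spanned 67.0% to 136% of their mean, and the pam48 arrays 43.9% to 62.3% of it. Only 3.11% of probe sets had a larger SD in wild type than LHCB4.3. The difference was −0.85 ± 0.28 (SE, limma adjusted p = 0.264), with a 95% interval from −1.53 to −0.17, that is 1.13-fold to 2.90-fold lower. Without wild type replicate 3 it was −1.14 (limma adjusted p = 0.224). The lowest value, on pam48 replicate 2, came from the array where the 3′ and 5′ probe sets of the actin control were furthest apart. That gap was 3.67 in log2 units there and 2.46 to 3.23 elsewhere. The 3.23 was on wild type replicate 3, the lowest wild-type array for LHCB4.3. Within each genotype, LHCB4.3 was lower the wider the actin gap. For the GAPDH control the gap was 2.41 on pam48 replicate 2 and 1.13 to 1.44 elsewhere. It was 1.37, 1.39 and 1.37 on wild type replicates 1, 2 and 3. The median of pam48 replicate 2, 6.55, was the highest of the 6. Without pam48 replicate 2 the LHCB4.3 difference was −0.69, and the part of RNA quality in the result was not tested.

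**Figure D1:**
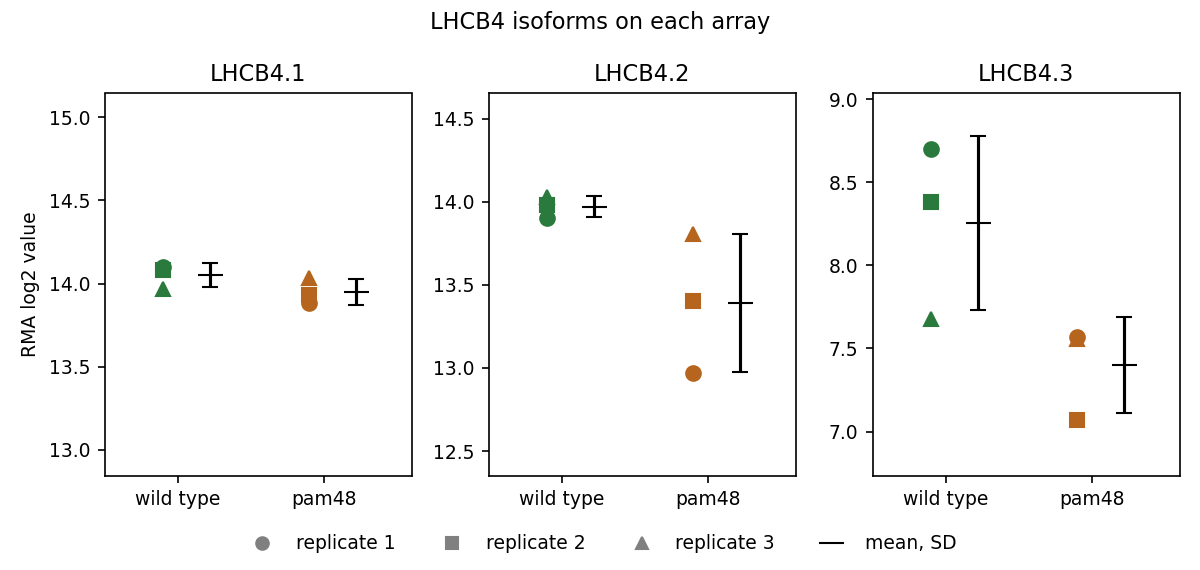
RMA log2 value (vertical axis, spanning the same range in each panel) of LHCB4.1, LHCB4.2 and LHCB4.3 on each of the 3 wild-type and 3 pam48 arrays; symbols mark the replicate number, bars the mean and SD. The LHCB4.1 genotypes overlap, LHCB4.2 spreads from 12.97 to 13.80 in pam48, and LHCB4.3 spreads from 7.68 to 8.70 in wild type.

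Groups without overlap were no rarity, since 11.4% of all probe sets had all 3 pam48 arrays below all 3 wild-type arrays, as 2 of the 3 members did. The weakest called probe set in the table had an absolute limma t of 6.63. At the standard errors measured here, a call would have needed a difference of about 0.67 for LHCB4.1, 1.39 for LHCB4.2 and 1.88 for LHCB4.3. The measured differences were well short of these.

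Over all probe sets, arrays of the same replicate number varied together, so differences were also read within the numbers. LHCB4.1 did not share this, as its values fell over the numbers in wild type and rose in pam48. LHCB4.3 fell over the numbers in wild type but was lowest on replicate 2 in pam48. LHCB4.3 was lower in pam48 by number with differences of −1.13, −1.32 and −0.12. LHCB4.2 gave −0.93, −0.58 and −0.23. LHCB4.1 gave −0.22, −0.15 and 0.07, so its pair of number 3 went the other way. Both LHCB4.2 and LHCB4.3 were thus lower in all 3 pairs, as were 23.3% of all probe sets. Since their genotypes did not overlap, any pairing of the arrays would have given this. In every isoform the number 3 pair lay closest to no difference. With the replicate number as a block the limma adjusted p was 0.162 for LHCB4.2, 0.167 for LHCB4.3 and 0.734 for LHCB4.1, while 1.81% of all probe sets were called.

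Whether the isoforms departed from each other was asked within each array, by subtracting the log2 value of one isoform from that of another and comparing this between the genotypes. LHCB4.1 minus LHCB4.2 went from 0.08 ± 0.13 on wild-type arrays to 0.56 ± 0.34 on pam48 arrays (SD, n = 3; exact permutation test, two-sided, p = 0.1). Every mutant array was above every wild-type array, from 0.23 to 0.91 against −0.06 to 0.20. The difference between these probe sets thus changed by 0.48 ± 0.21 (SE), with the nearest arrays of the genotypes 0.03 apart, and both were read near the top of the scale.

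LHCB4.3 minus LHCB4.1 went from −5.80 ± 0.45 in wild type to −6.55 ± 0.28 in pam48 (SD, n = 3; exact permutation test, two-sided, p = 0.1). The change was −0.75 ± 0.31 (SE), and the groups were separated by 0.02, between −6.29 on wild type replicate 3 and −6.31 on pam48 replicate 1. LHCB4.3 minus LHCB4.2 changed by −0.28 ± 0.45 (SE; exact permutation test, two-sided, p = 0.7), and the groups overlapped. Over the 3 pairs the Benjamini-Hochberg adjusted exact p was 0.15, 0.15 and 0.7. With 3 against 3 arrays 0.1 is the smallest p the exact test allows, so none of these could pass 0.05.

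**Figure D2:**
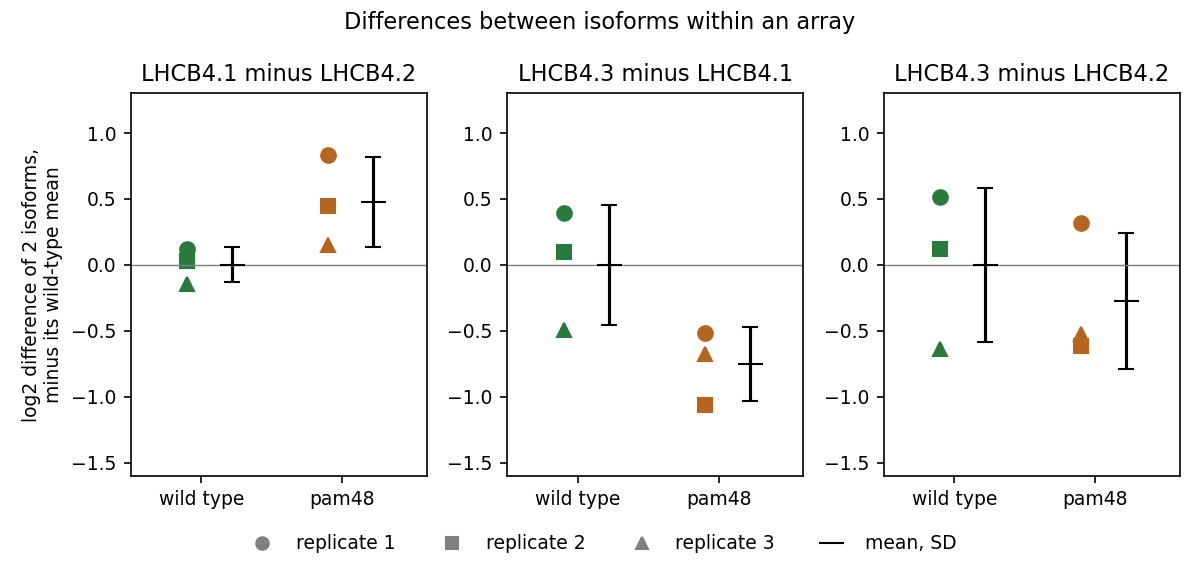
Log2 difference of a pair of isoforms within each array, minus the wild-type mean of that pair (vertical axis), for 3 wild-type and 3 pam48 arrays; symbols mark the replicate number, bars the mean and SD. The genotypes separate narrowly for LHCB4.1 minus LHCB4.2 and LHCB4.3 minus LHCB4.1, and overlap for LHCB4.3 minus LHCB4.2.

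Genes of the antenna, the photosystems, their pigments and regulators, and the circadian clock were thinly covered by probe sets with 1 listed gene. Of 97 genes in these 10 lists 8 were read, and limma called none of the 8. No gene was read of the other LHC antenna proteins (0 of 18), of LHC targeting to the thylakoid (0 of 5), of antenna kinases and phosphatases (0 of 4), of xanthophyll synthesis (0 of 8) or of light and chloroplast regulators (0 of 16). CP29 is therefore compared here with photosystem subunits and pigment enzymes, not with the rest of the antenna.

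The 4 nuclear photosystem subunits read had negative differences, from −0.59 to −0.19, as had 55.3% of all probe sets. An unadjusted p under 0.05 was reached by 3 of the 4, against 6.67% of all probe sets that were lower by that rule. PSBY, a small subunit of photosystem II, was at 13.85, 13.93 and 13.91 in wild type and at 13.13, 13.18 and 13.60 in pam48 (difference −0.59 ± 0.15, SE, limma adjusted p = 0.161). PSAE1, a stromal subunit of photosystem I, differed by −0.33 ± 0.11, PSAN, a lumenal subunit of photosystem I, by −0.28 ± 0.11, and PSBW, a small subunit of photosystem II, by −0.19 ± 0.11. In all 4, as in LHCB4.1 and LHCB4.2 but not LHCB4.3, pam48 replicate 3 was the highest mutant array, which was so in 31.6% of all probe sets.

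Of the LHC-like proteins and PSBS 2 of 9 genes were read, with LIL3.2, a protein that binds chlorophyll synthesis enzymes, at −0.19 ± 0.14 and the other at 0.03. NOL, a chlorophyll b reductase, was at −0.0010 ± 0.12 as the 1 of 4 genes read of chlorophyll b metabolism. GI, the 1 clock gene of 11 read, promotes flowering and clock timing, and was at 0.10 ± 0.26. None of these was called by limma.

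Lists added after the probe sets' names had been seen covered chlorophyll synthesis and the plastid-encoded core. Of 21 genes of chlorophyll synthesis 8 were read, and limma called none. Differences were negative in 5, as in 55.3% of all probe sets, and positive in 3. The median of this list was −0.18. PORB, a light-dependent protochlorophyllide oxidoreductase, had the largest absolute difference there, from 13.09 ± 0.18 to 12.32 ± 0.45 (SD, n = 3), a difference of −0.77 ± 0.24 (SE, limma adjusted p = 0.233). HEMA2, a glutamyl-tRNA reductase at the start of the pathway, was nearly as far from 0 on the other side, at 0.76 ± 0.43 (SE, limma adjusted p = 0.504), and at 0.24 without pam48 replicate 1. All 15 plastid-encoded psb genes in the gene table were read, limma called none, and the median was 0.17. Differences were positive in 11 of the 15 and negative in 4, while 55.3% of all probe sets were negative. The largest difference was that of psbJ, a small photosystem II subunit, at 0.70 ± 0.15 (SE, limma adjusted p = 0.114). At an unadjusted p under 0.05 in limma, 3 of the 15 were higher, psbJ among them, against 1545 of 22746 probe sets. These 3 have nearby plastid locus numbers. Whether the LHCB4 genes differ from these lists was not tested.

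**Figure D3:**
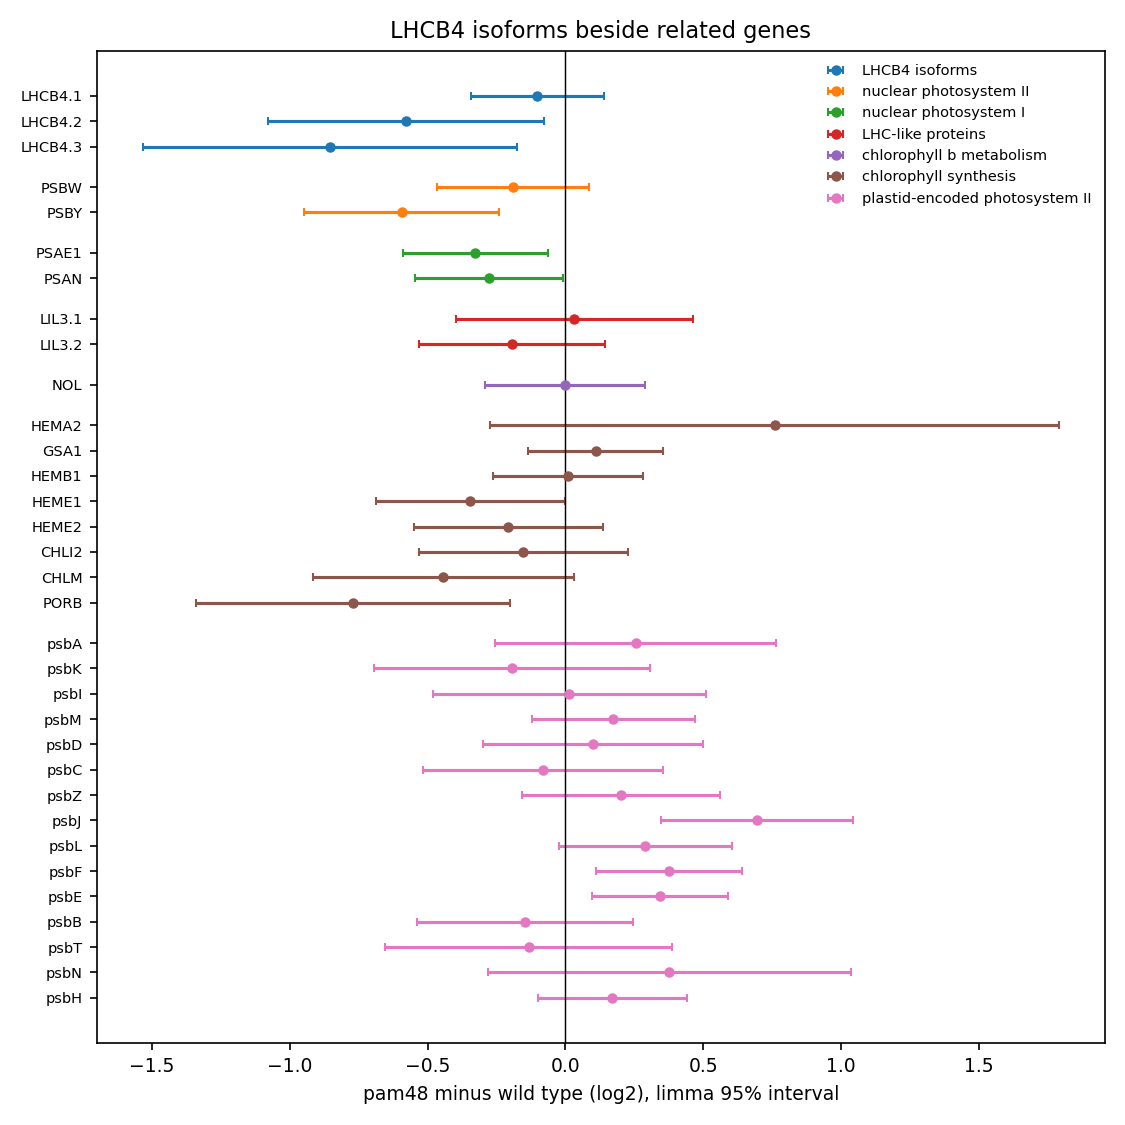
Difference pam48 minus wild type on the log2 scale (horizontal axis) with limma's 95% interval for the 3 LHCB4 isoforms and related genes, grouped by colour. No gene shown was called. The 3 isoforms lie between −0.85 and −0.10, and the 4 nuclear photosystem subunits between −0.59 and −0.19. Above 0 lie 11 of 15 plastid-encoded genes, against 10159 of 22746 probe sets tested.

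Genes with the most similar course over the 6 arrays were taken by Pearson's r of log2 values, among 6980 or 6981 other probe sets with 1 gene that spanned at least 0.5. For LHCB4.2 they were AT1G07840 (r = 0.998), AT5G35480 (r = 0.990) and AT4G13840 (r = 0.990), the last listed as CER26, and 328 probe sets had r above 0.9. For LHCB4.3 they were AT3G11210 (r = 0.996), AT1G33130 (r = 0.992) and AT3G55780 (r = 0.987), with 98 above 0.9. For LHCB4.1 they were AT5G11280 (r = 0.984), ALDH3F1, an aldehyde dehydrogenase (r = 0.983), and AT3G60440 (r = 0.959), with 28 above 0.9. LHCB4.1 itself, at 13.89 to 14.10, spanned less than the 0.5 asked of the other probe sets. No gene was among the 3 most similar of more than 1 isoform, and overlap among all probe sets with r above 0.9 was not examined. AT5G35480 (3.33 to 4.78), AT1G33130 (3.62 to 4.16) and AT3G55780 (4.47 to 4.97) lay below every array median. With 6 arrays that share genotype and replicate number, such values describe these arrays only.

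Over the series, array medians lay between 6.39 and 6.55. MTERF6 (AT4G38160) had 0 probe sets with 1 listed gene, so its level was not analysed by name. RCA, Rubisco activase, was the mesophyll marker read (1 of 6) and stood at 14.15 to 14.37 on all arrays. It too was read near the top of the scale, where compression of changes was not tested. Of the other marker genes of guard cells, shoot apex, root and senescent leaf, 1 was read each. FMA of guard cells differed by −0.41 ± 0.13 and CLV3 of the shoot apex by −0.31 ± 0.11, both without overlap of the genotypes, as in 11.4% of all probe sets. CLV3 was dim, at most 3.70 on any array, and FMA, at 5.47 to 6.08, also lay below every array median. The part of these markers in the isoform differences was not tested. PYK10, a beta-glucosidase of the root, ranged from 5.19 to 9.74 and was above 7 on wild type replicate 1 and on pam48 replicates 2 and 3. WRKY6, a senescence marker, ranged from 5.05 to 5.53 and, like FMA, lay below every array median. Limma called none of the 5.

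**Figure D4:**
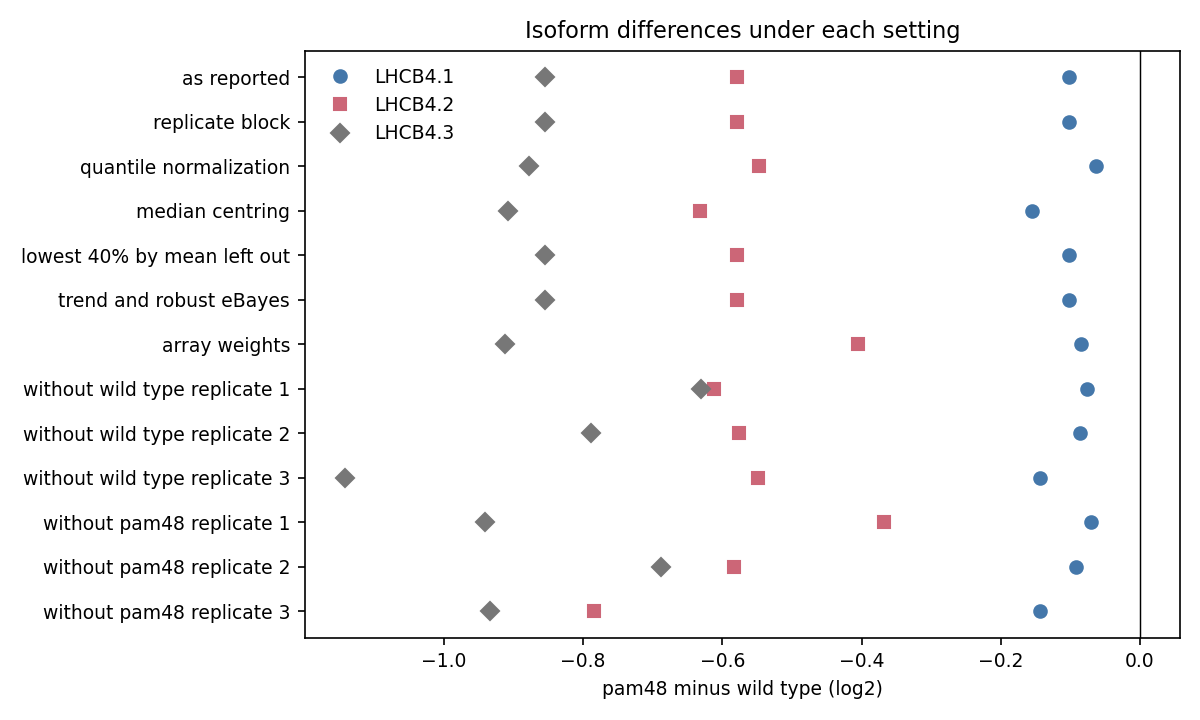
Difference pam48 minus wild type on the log2 scale (horizontal axis) of the 3 isoforms as reported and under 12 other settings (rows), 6 of which leave out 1 array. All 36 values under other settings are negative and none was called; LHCB4.2 ranges from −0.78 to −0.37 and LHCB4.3 from −1.14 to −0.63.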

How the data were processed

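The deposited table held log2 values, 1 per probe set and array, which the authors summarised by RMA (per the submitters' processing notes) from cRNA of 5 µg total RNA (per the labels' protocols). Neither an RMA version nor a genome build is given in the sources used here, and the log2 scale was read from the values. Of 22810 rows, 64 control probe sets were left out, and 22746 were tested. GEO's platform annotation gave 1 gene for 13513 of them, of which 13436 were found in the TAIR10.1 gene table, used for names and chromosomes only. Scanner intensities were not used here, so signal over background was not examined, and the number of arrays limits the precision. Correlations between arrays lay between 0.953 and 0.992.

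The comparison of pam48 with wild type used limma 3.58.1 under R 4.3.3 (lmFit, eBayes, two-sided, Benjamini-Hochberg over 22746 probe sets), after a test on simulated data. Isoform pairs were compared by exact permutation (scipy 1.17.1). The replicate numbers of the labels were checked by correlating deviations from the genotype means. The correlations were 0.53, 0.20 and 0.54 for numbers 1, 2 and 3, above the limit of 0.1. The data, not the labels, thus gave the pairing, and deviations of arrays with different numbers were not correlated. Alternatives were the replicate block, quantile normalization, median centring, leaving out the lowest 40% of probe sets, trend and robust eBayes, array weights, each array left out, and a threshold of 0.01. The members and lists were chosen with earlier results of these data known. Named were the members, in each list the called genes and the largest difference, the markers, and the 3 genes most like each member; PSBW, PSAN, PORB, HEMA2 and psbJ were added after their values were seen, and a gene was read from its probe set of highest mean.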

Additional observations from a re-analysis of the deposited data

How the results depend on the processing

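The 3 isoform differences kept their negative sign and stayed uncalled in all 36 values from the 12 other settings, with LHCB4.1 from −0.16 to −0.06, LHCB4.2 from −0.78 to −0.37 and LHCB4.3 from −1.14 to −0.63. When each array was left out in turn, LHCB4.1 ranged from −0.14 to −0.07, and LHCB4.2 and LHCB4.3 over the same limits as above. With array weights LHCB4.2 was at −0.40. The replicate block changed no call of an isoform, and by sign flips within the 3 numbers the exact p of the isoform pairs was 0.25, 0.25 and 0.5, where 0.25 is the smallest possible. Leaving out an array gave 0.30 to 0.64 for LHCB4.1 minus LHCB4.2, −0.999 to −0.554 for LHCB4.3 minus LHCB4.1 and −0.59 to −0.02 for LHCB4.3 minus LHCB4.2. The count of 177 called probe sets became 412 with the replicate block, 351 with array weights, 8 at an adjusted p under 0.01, and 1 to 291 when 1 array was left out; the cause was not tested. It was 1 when any wild-type array was missing; with pam48 replicate 1, 2 or 3 missing it was 291, 12 or 39. The other 4 settings gave 166 to 178. Of 283 values of 24 other named genes, 278 kept their sign and none was called. The exceptions were GI, at −0.14 with array weights and, when an array was left out, between −0.12 and 0.37, and NOL, between −0.083 and 0.093 when an array was left out. Limits set by signal over background could not be read from these values.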
